A study of Homo sapiens with 6 samples.

Results

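The 8 genes described here encode proteins of the red cell membrane and of the skeleton under it: the glycophorins GYPB, GYPC and GYPE, the anion exchanger SLC4A1 (band 3), and the skeleton proteins SPTB (beta spectrin), ANK1 (ankyrin), EPB41 (protein 4.1) and EPB42 (protein 4.2). They were chosen by name for their place in this structure, out of 25702 gene identifiers counted, with earlier results of these data known. All 8 were found and passed the filter on low counts. They were measured by RNA sequencing of poly(A)-selected RNA from K562, a human myeloid leukemia line that makes embryonic and fetal globins. The cells were transfected with the pCMV-HA expression plasmid, either empty (EV), carrying MXD3, or carrying the fusion STIM1::MXD3, with 2 libraries for each of the 3 groups and no other treatment. MXD3 belongs to the MAD proteins, which compete with MYC for the partner MAX. In the fusion, the start of STIM1, a calcium sensor, replaces the putative repression domain of MXD3, and the part that binds DNA remains. As a model, the design is limited to 1 cell line with a plasmid driven by the CMV promoter, and the counts do not tell cells that took up the plasmid from those that did not. In bulk RNA of this kind, fewer cells of a type and less RNA per cell cannot be told apart.

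The red cell keeps its shape through a net of spectrin chains lying under the lipid bilayer. Ankyrin ties beta spectrin to band 3, with protein 4.2 bound to both, and protein 4.1 ties the spectrin and actin junctions to glycophorin C. Inherited defects of ankyrin, beta spectrin, band 3 and protein 4.2 are known causes of spherocytosis, and defects of protein 4.1 of elliptocytosis. GYPB and GYPE come from duplicated genes, whereas GYPC carries the Gerbich blood group antigens and is not related to them by sequence.

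The libraries held between 53048343 and 63835779 counts. MXD3 read 9.33 and 11.7 CPM (counts scaled to a common library size with TMM factors) in the EV libraries, 2523 and 2162 with the MXD3 plasmid, and 1975 and 1849 with the fusion plasmid. STIM1 read between 159 and 205 CPM in the EV and MXD3 libraries and 471 and 453 with the fusion plasmid. Both plasmid genes were thus high in the libraries labelled with them. All 10 erythroid markers looked for were detected, with summed levels of 6941 to 9690 CPM. The 4 megakaryocytic, 4 myeloid and 4 lymphoid markers summed to at most 37.1, 86.0 and 2.54 CPM, with GP9 and MS4A1 at 0 counts in every library, PF4 at 9 counts or fewer and MPO at 2 or fewer.

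Because counting can pass reads between near-identical genes, the start of the coding sequence is shown for GYPB and GYPE, read from the GRCh37 transcripts, with capitals in GYPE at the bases that differ from GYPB. The stretch is 75 bases long, and GYPE differed from GYPB at 4 of them.

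GYPB: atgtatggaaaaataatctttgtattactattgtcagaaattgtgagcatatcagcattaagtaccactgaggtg
GYPE: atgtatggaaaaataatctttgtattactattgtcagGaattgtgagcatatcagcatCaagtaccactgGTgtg

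Across the whole GYPE transcript of 1687 bases, 1.04% of windows of 50 bases also occurred in GYPB. For EPB42, 15.5% of windows of 100 bases lay in an overlapping noncoding gene on the same strand. No window of 100 bases was shared with another gene for the 6 genes other than EPB42 and GYPB. Values of EPB42 are therefore uncertain to the extent that reads from shared stretches were assigned to another gene. The same holds for GYPB, for which no share of windows over all genes is given here. Whether reads matching several genes were counted was not given in the sources used here.

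The region around an annotated start is shown where it held AGATAA, which was in SPTB, EPB42, GYPB and GYPE. SPTB and EPB42 rose in replicate 2. GYPB and GYPE have nearly the same starts and differed in their spread over libraries. SPTB has another annotated start, with a window at chr14:65290049-65290348, in which AGATAA was absent. Each stretch runs from 250 bases before the start to 20 bases after it in the direction of the gene, comes from RefSeq (GRCh38.p14) and was placed by an exact match in GRCh37. SPTB lay at chr14:65346606-65346875, EPB42 at chr15:43513197-43513466, GYPB at chr4:144940514-144940783 and GYPE at chr4:144826693-144826962, all on the minus strand. Capitals mark AGATAA, a form of the motif known for GATA factors. Other forms of this motif were not searched, so stretches and windows without AGATAA may still hold them.

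SPTB: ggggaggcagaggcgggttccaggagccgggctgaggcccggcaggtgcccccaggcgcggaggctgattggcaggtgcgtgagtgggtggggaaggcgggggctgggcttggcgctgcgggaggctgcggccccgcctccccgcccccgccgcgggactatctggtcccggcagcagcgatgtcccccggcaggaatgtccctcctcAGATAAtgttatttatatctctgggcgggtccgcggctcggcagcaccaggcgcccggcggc
EPB42: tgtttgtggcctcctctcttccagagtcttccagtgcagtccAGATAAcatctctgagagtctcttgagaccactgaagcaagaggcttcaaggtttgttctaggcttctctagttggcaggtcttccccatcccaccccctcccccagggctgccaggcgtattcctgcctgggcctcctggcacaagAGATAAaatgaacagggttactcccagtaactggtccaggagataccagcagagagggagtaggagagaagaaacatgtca
GYPB: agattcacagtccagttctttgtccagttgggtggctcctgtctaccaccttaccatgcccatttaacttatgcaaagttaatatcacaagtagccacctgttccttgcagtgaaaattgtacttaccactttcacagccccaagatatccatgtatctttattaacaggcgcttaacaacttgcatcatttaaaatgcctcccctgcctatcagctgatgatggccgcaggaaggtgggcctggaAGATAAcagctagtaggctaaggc
GYPE: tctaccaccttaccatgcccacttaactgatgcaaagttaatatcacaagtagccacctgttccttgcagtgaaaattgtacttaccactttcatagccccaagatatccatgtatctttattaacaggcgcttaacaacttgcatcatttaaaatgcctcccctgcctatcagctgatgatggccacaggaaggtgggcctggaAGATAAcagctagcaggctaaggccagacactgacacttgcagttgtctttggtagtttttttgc

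AGATAA was searched on both strands of the RefSeq windows of 300 bases. It occurred in 5 of 9 windows, which belong to 4 of the 6 genes with a window (EPB42, SPTB, GYPB and GYPE). Of all 35116 windows, 10.3% held it. The GYPB windows overlap and hold the same site, and the GYPE window is a near copy of them with that site. The 5 windows are therefore not separate occurrences, and whether they exceed the share of all windows was not tested. The distance of AGATAA before the start was 61 and 208 bases in EPB42, 42 in the SPTB window shown and 45 in GYPE. In GYPB it was 4 or 39 depending on which of its annotated starts was used. CACGTG, the palindromic E-box known for MYC and MXD factors, occurred in 0 of the 9 windows and in 7.26% of all windows. SLC4A1 and ANK1 had no window used. The GYPB and GYPE windows were 98.1% identical over the 259 bases that could be laid side by side.

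Per length, the 8 genes spanned a wide range of levels. Divided by the length of the canonical transcript, the mean over the 6 libraries was 258 CPM per kilobase for GYPC and 141 for EPB41, and the lowest were SLC4A1 at 8.02 and EPB42 at 5.57. Between them lay GYPB at 61.5, ANK1 at 36.7, GYPE at 32.7 and SPTB at 12.6. The ranges over libraries of ANK1 (34.2 to 40.7) and GYPE (30.4 to 36.0) overlapped. So did those of GYPB (38.8 to 81.4) and ANK1, and those of SLC4A1 (6.36 to 10.6) and EPB42 (3.34 to 7.76). Within each library, GYPB was above ANK1 and SLC4A1 above EPB42 by this length. ANK1 was above GYPE except in EV replicate 2, so the order of these neighbours was not the same in every library. With the length of all annotated exons in place of the canonical transcript, GYPC stayed highest and SLC4A1 and EPB42 lowest, and GYPB moved below ANK1 and GYPE.

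**Figure D1:**
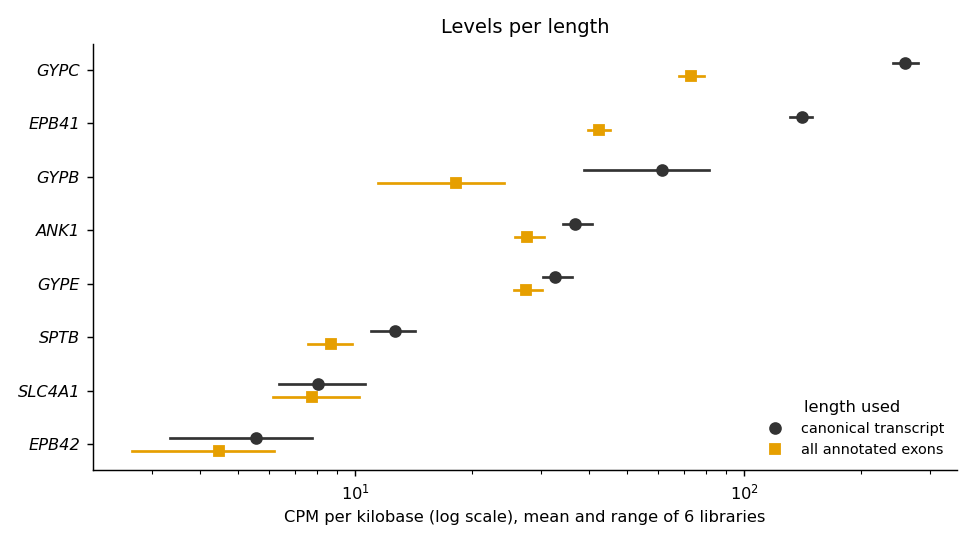
Levels of the 8 genes in CPM per kilobase on a log axis, as the mean (point) and range (line) of 6 libraries, with 2 choices of transcript length. GYPC is highest at 258 and EPB42 lowest at 5.57 by canonical transcript, and GYPB at 61.5 shows a broad range.

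The genes also differed in how much they varied. The highest library exceeded the lowest 2.32-fold for EPB42, 2.10-fold for GYPB and 1.66-fold for SLC4A1, against 1.14-fold to 1.30-fold for the other 5. For GYPB the coefficient of variation over the 6 libraries was 28.6%, whereas the counting error at its lowest count of 1268 was 2.81%, or 3.97% with counts halved. EPB42, with 503 to 1101 counts, varied by 26.3% against a counting error of 4.46% at its lowest count, or 6.31% with counts halved. Halving is given because low counts were even more often than odd, so that a fragment may have been counted for both of its reads. The spread of these genes was thus larger than counting alone gives, and counting error covers sampling of reads only.

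**Figure D2:**
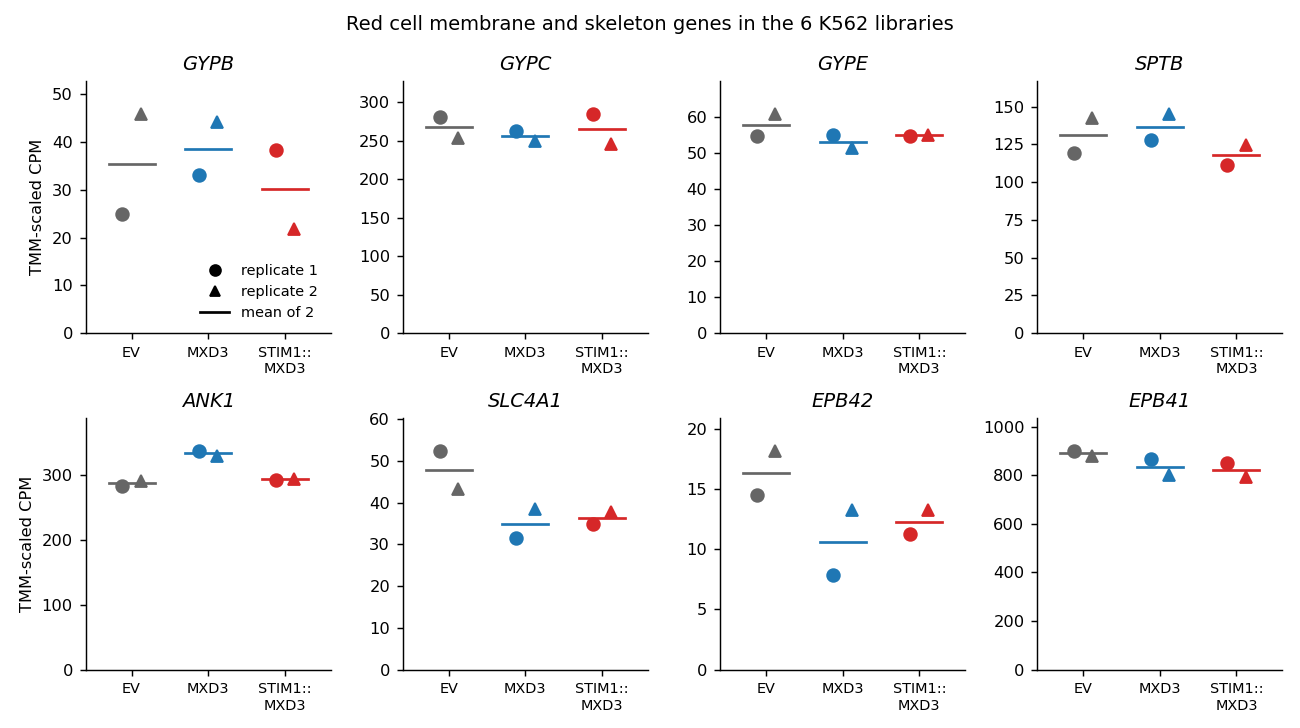
TMM-scaled CPM of each gene in the 6 libraries, with circles for replicate 1, triangles for replicate 2 and a line at the mean of 2 libraries. The 4 libraries with MXD3 or STIM1::MXD3 lie below both EV libraries for SLC4A1, EPB42 and EPB41 and above them for ANK1, and GYPB spreads from 21.9 to 45.9.

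Whether MXD3 or STIM1::MXD3 changes these genes was asked by comparing each plasmid with EV and the fusion with MXD3. No gene of the 8 passed the threshold of 0.05 on the adjusted p in edgeR in any of the 3 comparisons. Across all 15431 genes tested, 0.00648% passed for STIM1::MXD3 against EV, 0.00648% for MXD3 against EV and 0% for STIM1::MXD3 against MXD3. STIM1, carried by the fusion plasmid, had a log2 fold change of 1.28 ± 0.14 (SE) against EV and an adjusted p of only 0.359 in edgeR, so a change of that size in a single gene could also be missed without the block, under which its adjusted p was 4.27e-07. At an unadjusted p under 0.05, edgeR held 1 of the 8, SLC4A1, in each comparison with EV and 0 in STIM1::MXD3 against MXD3, where it held 0.953%, 1.86% and 1.01% of all genes. DESeq2 called 0 of the 8 in each comparison by adjusted p, where it called 0.0194%, 0.0194% and 0.00648% of all genes, and at an unadjusted p under 0.05 it held 1, 2 and 0, where it held 1.17%, 2.09% and 1.11% of all genes. In the edgeR fit blocked by replicate number it called 0 of 8 in each, where it called 0.0194%, 0.292% and 0.00648% of all genes, and at an unadjusted p under 0.05 it held 2, 3 and 2, where it held 8.5%, 13.9% and 6.49% of all genes. DESeq2 with the block called 0 of 8 for STIM1::MXD3 against EV and against MXD3, where it called 0.188% and 0.0713% of all genes. EPB42 had no adjusted p in that fit for STIM1::MXD3 against EV and could not be called there. These percentages are over all genes tested, with or without an adjusted p. The comparisons with EV share the same EV libraries, so their values are given side by side and not as separate evidence.

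The band 3 complex is described first. SLC4A1 (gene ID 6521, chr17:42325758-42345509, minus strand, GRCh37), which exchanges chloride for bicarbonate and anchors the skeleton, read 52.4 and 43.2 CPM in EV, 31.5 and 38.4 with MXD3, and 34.9 and 37.8 with STIM1::MXD3. Both EV libraries were above all 4 others, with no overlap. The log2 fold change was -0.45 ± 0.16 for MXD3 against EV and -0.40 ± 0.16 for STIM1::MXD3 against EV, with adjusted p of 1.00 in edgeR for both. In the fit blocked by replicate number the differences were -0.46 ± 0.12 and -0.40 ± 0.12, with adjusted p of 0.131 and 0.447. Within pairs of the same replicate number, SLC4A1 was lower with MXD3 by 0.73 and 0.17 and lower with the fusion by 0.59 and 0.19 on the log2 scale. DESeq2 with the block called SLC4A1 lower for MXD3 against EV, at an adjusted p of 0.0469.

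EPB42 (gene ID 2038, chr15:43489425-43513216, minus strand), which encodes protein 4.2, a transglutaminase relative without enzyme activity that stabilizes the band 3 and ankyrin link, read 14.5 and 18.2 CPM in EV. It read 7.83 and 13.3 with MXD3 and 11.3 and 13.3 with STIM1::MXD3. The groups with a plasmid gene lay below EV without overlap, and the MXD3 and fusion libraries overlapped. The log2 fold change was -0.63 ± 0.28 for MXD3 against EV and -0.41 ± 0.28 for STIM1::MXD3 against EV, with adjusted p of 1.00 for both in edgeR. With the block they were -0.66 ± 0.16 and -0.41 ± 0.16, with adjusted p of 0.0928 and 0.531. DESeq2 with the block called EPB42 lower for MXD3 against EV at an adjusted p of 0.0193, so that this fit called 2 of the 8 genes, where it called 1.57% of all genes. The edgeR difference for MXD3 against EV rested on which MXD3 library was kept, at -1.07 when replicate 2 was left out and -0.29 when replicate 1 was. For STIM1::MXD3 against EV, DESeq2 with the block gave no adjusted p for EPB42.

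ANK1 (gene ID 286, chr8:41510739-41754259, minus strand), the ankyrin that joins spectrin to band 3, went the other way in the order of its libraries. It read 283 and 290 CPM in EV, 337 and 329 with MXD3, and 292 and 294 with STIM1::MXD3. The MXD3 libraries were the highest, and the fusion libraries exceeded the higher EV library only slightly. The log2 fold change was 0.22 ± 0.11 for MXD3 against EV, with an adjusted p of 1.00 in edgeR, and 0.236 with the block. For STIM1::MXD3 against EV it was 0.03 ± 0.11, with a 95% interval from -0.24 to 0.30, and for STIM1::MXD3 against MXD3 it was -0.18 ± 0.11. The ANK1 locus also holds MIR486, a microRNA that these poly(A) counts do not measure.

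Counting by order, 3 of the 8 genes (SLC4A1, EPB42 and EPB41) had all 4 libraries with a plasmid gene below both EV libraries, where 4.59% of all genes did, and 1 (ANK1) had them above, where 5.92% did. For STIM1::MXD3 against EV alone these counts were the same 3 below and 1 above, where 10% and 12% of all genes were, and for MXD3 against EV 14.8% and 16.2% were. The median log2 fold change of the 8 genes was -0.13 for STIM1::MXD3 against EV, with 7 of 8 negative, and -0.078 for MXD3 against EV, with 5 of 8 negative. The medians of all genes tested were 0.0096 and 0.0011.

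**Figure D3:**
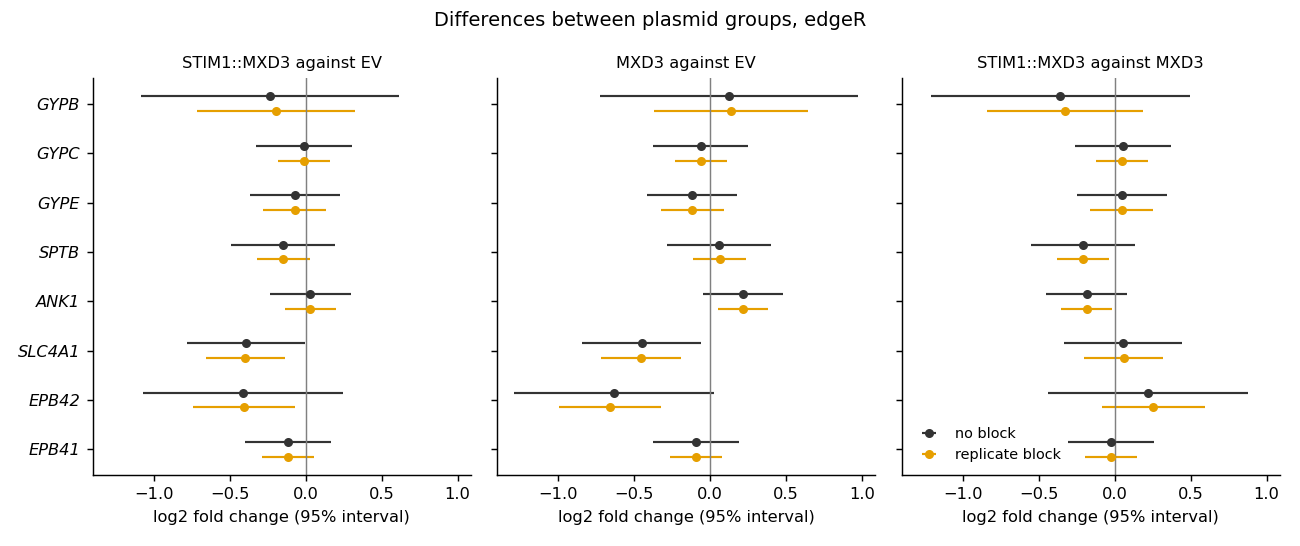
Log2 fold change of each gene with its 95% interval in edgeR, for the 3 comparisons, without a block (black) and with a block for replicate number (orange). The intervals of SLC4A1 lie below 0 in both comparisons with EV, and GYPB has the widest intervals.

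In SPTB the fusion libraries were lower than the MXD3 libraries. SPTB (gene ID 6710, chr14:65213001-65346625, minus strand), the beta chain that carries the ankyrin site, read 119 and 143 CPM in EV, 128 and 145 with MXD3, and 112 and 124 with STIM1::MXD3. The 2 fusion libraries were below both MXD3 libraries, and they overlapped with EV. Within pairs of the same replicate number, the log2 difference of SPTB was -0.19 and -0.22 for STIM1::MXD3 against MXD3. For STIM1::MXD3 against EV it was -0.096 and -0.20. The log2 fold change for STIM1::MXD3 against MXD3 was -0.21 ± 0.15, with an adjusted p of 1.00 in edgeR. With the block, edgeR held SPTB and ANK1 at an unadjusted p under 0.05 in this comparison, where it held 6.49% of all genes. Neither passed by adjusted p. The order from fusion to MXD3 without overlap was met by 2 of the 8 genes below (SPTB and ANK1), where 10.2% of all genes met it. It was met by 0 above, where 10.9% did. SPTB overlaps PLEKHG3 on the opposite strand, and whether counting used strand was not given in the sources used here.

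EPB41 (gene ID 2035, chr1:29213603-29446558, plus strand, overlapping TMEM200B on the opposite strand), which strengthens the spectrin and actin junction, was the highest of the 8 in CPM. It read 901 and 880 CPM in EV, 867 and 802 with MXD3, and 850 and 792 with STIM1::MXD3. Both EV libraries were above the other 4, by a small margin. The log2 fold change was -0.09 ± 0.12 for MXD3 and -0.12 ± 0.12 for STIM1::MXD3 against EV, with 95% intervals from -0.38 to 0.19 and from -0.40 to 0.17. GYPC (gene ID 2995, chr2:127413709-127454243, plus strand), the glycophorin that binds protein 4.1, read 282 and 254 CPM in EV, 262 and 250 with MXD3, and 285 and 246 with STIM1::MXD3. The groups overlapped, and the log2 fold changes against EV were -0.06 ± 0.13 and -0.01 ± 0.13.

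The duplicated glycophorins showed no ordering by group. GYPE (gene ID 2996, chr4:144792017-144826716, minus strand), whose protein product on the red cell is not well established, read 54.5 and 60.8 CPM in EV, 54.8 and 51.3 with MXD3, and 54.7 and 54.9 with STIM1::MXD3. GYPB (gene ID 2994, chr4:144917257-144940533, minus strand), which carries the S and s antigens, read 24.9 and 45.9 CPM in EV, 33.0 and 44.1 with MXD3, and 38.3 and 21.9 with STIM1::MXD3. The GYPB groups overlapped, and the highest and the lowest library of all 6 belonged to EV and to the fusion group. Its log2 fold change for STIM1::MXD3 against EV was -0.24 ± 0.36, with a 95% interval from -1.09 to 0.62. These libraries therefore left the size and the direction of this GYPB difference uncertain.

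Replicate 2 was then compared with replicate 1 over the 3 groups, since the libraries with the same number deviated together. In this comparison 29.2% of all genes passed in edgeR, 13.1% higher and 16.1% lower. Of the 8 genes 2 passed, both higher in replicate 2. EPB42 rose by 0.44 ± 0.13 on the log2 scale, with an adjusted p of 0.0183, and was higher in 3 of 3 groups, by 0.32 in EV, 0.76 with MXD3 and 0.24 with STIM1::MXD3. SPTB rose by 0.20 ± 0.07, with an adjusted p of 0.0352, and was higher by 0.26, 0.18 and 0.16. Both were higher in all 3 groups, as 28.6% of all genes were. Leaving out either MXD3 library ended both calls, and leaving out either EV library ended that of SPTB. Either library of a group removes the same pair from this comparison, so the 2 fits for a group are not separate results.

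GYPC and EPB41 were lower in replicate 2 in all 3 groups, as 30.2% of all genes were. All the GYPC replicate 2 libraries were below all its replicate 1 libraries, as in 20.6% of all genes. The log2 difference of GYPC was -0.15 ± 0.07, with an adjusted p of 0.111 in edgeR. GYPB differed in direction between groups, with 0.88 in EV, 0.42 with MXD3 and -0.81 with STIM1::MXD3. Leaving out either fusion library removed the fusion pair from this comparison. Such a fit rested on the EV and MXD3 pairs, in which GYPB was higher in replicate 2. The other 4 genes had log2 differences between -0.08 and 0.04 over the 3 groups together. For SLC4A1 this combined -0.28 in EV with 0.29 with MXD3 and 0.12 with STIM1::MXD3. GYPE and ANK1 also differed in direction between groups, by smaller amounts.

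Most other membrane genes that passed between replicates were lower in replicate 2. Of 36 other membrane genes, all tested, 16 passed, 1 higher and 15 lower, with a median of -0.23. Of all genes 29.2% passed, 13.1% higher and 16.1% lower. RHD, RHCE and RHAG, of the Rh complex, fell by 0.93 ± 0.08, 0.82 ± 0.09 and 0.50 ± 0.07 on the log2 scale. RHD read 99.0, 89.7 and 103.7 CPM in the replicate 1 libraries and 58.2, 48.3 and 47.7 in those of replicate 2. RHD and RHCE are near-identical neighbours, so their separate values are uncertain. TMOD1, which caps the short actin filaments of the skeleton, fell by 0.56 ± 0.09, and ADD2, the beta adducin that binds spectrin to actin, by 0.40 ± 0.08. TPM3, a tropomyosin, rose by 0.19 ± 0.07.

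**Figure D4:**
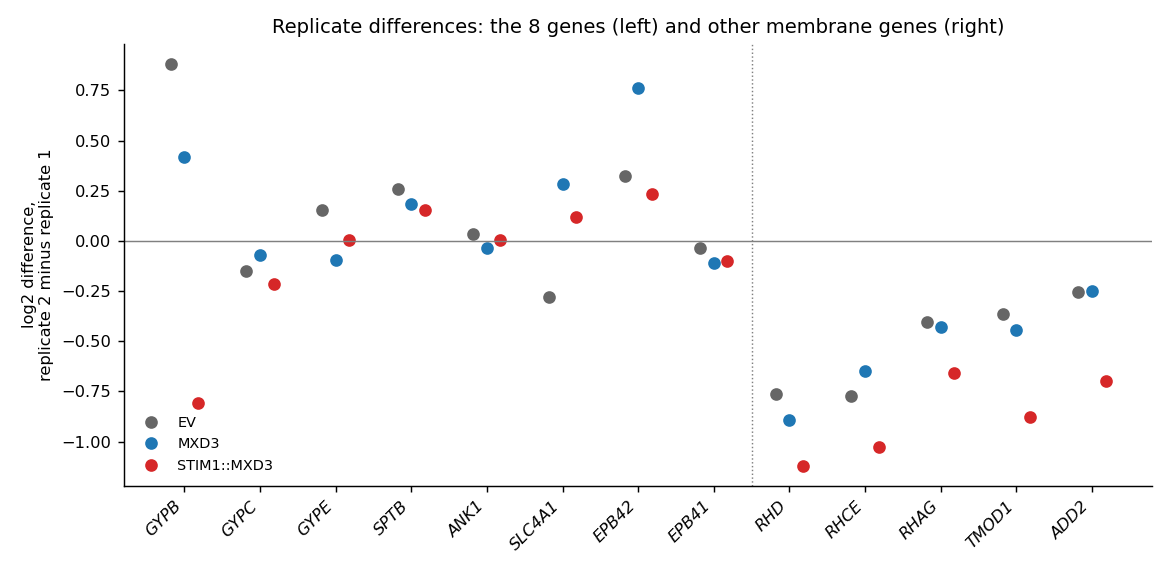
Log2 difference of replicate 2 minus replicate 1 within EV, MXD3 and STIM1::MXD3, for the 8 genes on the left and 5 other membrane genes on the right. SPTB and EPB42 are above 0 in all groups, GYPB runs from 0.88 to -0.81, and RHD, RHCE, RHAG, TMOD1 and ADD2 are below 0 in all groups.

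Erythroid markers moved the same way as the Rh genes: 7 of 10 passed lower in replicate 2 and 0 higher, where 16.1% and 13.1% of all genes did. These markers were led by HBZ at -0.90 ± 0.07, HBG1 at -0.76 ± 0.07 and KLF1, an erythroid transcription factor, at -0.55 ± 0.08. Their summed CPM was between 8598 and 9690 in the replicate 1 libraries and between 6941 and 7769 in those of replicate 2. The part of these shifts in the values of SPTB and EPB42, which went up, was not tested. Of the 2 megakaryocytic markers tested, ITGA2B was higher by 0.38 ± 0.11 and ITGB3 lower by 0.46 ± 0.14. Of the 3 myeloid markers tested SPI1 passed, lower by 0.45 ± 0.09, and of the 3 lymphoid markers 0 passed in edgeR or DESeq2, with 1 at an unadjusted p under 0.05 in edgeR and 0 in DESeq2. The percentage of counts on mitochondrial genes was 1.45% to 3.73% and was higher in replicate 1 for EV and in replicate 2 for the other groups.

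In the comparisons between plasmids, 0 of the 36 other membrane genes passed in edgeR, with 0 in each at an unadjusted p under 0.05. Their median log2 fold change was -0.08 for STIM1::MXD3 against EV, -0.10 for MXD3 against EV and 0.04 for STIM1::MXD3 against MXD3. DESeq2 called 0 in each, with 0, 1 and 0 at an unadjusted p under 0.05. With the block it called 2 of the 36 for MXD3 against EV, where it called 1.57% of all genes. These were CD44 at -0.80 ± 0.24 and SLC2A1, the glucose transporter, at -0.33 ± 0.10. Of the cell type markers edgeR called 0 between plasmids, with 0 at an unadjusted p under 0.05. In the blocked fit it called HBZ, at 0.40 ± 0.08 and an adjusted p of 0.0482 for MXD3 against EV, where it called 0.292% of all genes. DESeq2 with the block also called SPI1, a myeloid factor, at -0.54 ± 0.13 in that comparison. Among relatives of the 8 genes that other tissues use, 14 of 17 were tested and 0 passed between plasmids in edgeR or DESeq2, with 0, 0 and 1 at an unadjusted p under 0.05 in each. SPTBN1, the widely expressed beta spectrin, had a log2 fold change of -0.37 ± 0.15 for STIM1::MXD3 against MXD3, with an adjusted p of 1.00 in edgeR. Between replicates 3 of the 14 relatives tested passed in edgeR, where 29.2% of all genes did. TGM1 at 1.43 ± 0.29 was higher, and SPTAN1 at -0.48 ± 0.09 and ANK3 at -0.32 ± 0.07 were lower.

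Likeness over the 6 libraries is given as a description, since these share 1 cell line and the replicate shift. Among 10249 genes with a mean of at least 5 CPM, the highest Pearson r was with ATR for ANK1 (0.994), UBFD1 for EPB41 (0.999), ERBB3 for EPB42 (0.997) and PHTF2 for GYPC (0.997). It was TOM1L2 for SPTB (0.985), ARHGEF11 for SLC4A1 (0.970), ZMAT3 for GYPB (0.967) and SAMHD1 for GYPE (0.966). For GYPC, 518 genes reached an r of at least 0.95, and for GYPB, GYPE and SLC4A1 only 3 each did. Among the 8 genes the highest r was 0.762, between SLC4A1 and EPB42, and the lowest -0.758, between GYPC and SPTB.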

How the data were processed

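RNA of K562 cells was extracted, poly(A)-selected and sequenced, and the authors deposited raw read counts per NCBI gene for each of 6 libraries, per the labels on hg19 (GRCh37). HISAT2 2.2.1 and featureCounts 2.0.1 are named in the submitters' processing notes, and the study's methods name a DRAGEN RNA pipeline. The annotation, strand setting and handling of reads with several matches were not given in the sources used here. Even values made up 59.8% to 67.3% of counts from 1 to 39, so counts divided by 2 were tried as an alternative. Replicates are described by the study as separate transfections.

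Of 25702 identifiers, 92.2% had a symbol. Genes passing filterByExpr (15431) were tested with edgeR 4.0.16 in R 4.3.3, by the quasi-likelihood F test with TMM scaling in 1 fit over 6 libraries without covariates, with Benjamini-Hochberg adjustment over all genes at 0.05. Replicate 2 against replicate 1 was tested as a term beside group. Log2 fold changes carry their SE. DESeq2 1.42.0, other scaling and filters, each library left out, pairs of groups alone and the replicate number as a block were alternatives. For each pair of groups, the deviations from the group mean in libraries of equal number correlated at 0.27 to 0.45 over all genes. Over genes with a mean of at least 5 CPM, which include all members, they correlated at 0.62 to 0.79. The replicate numbers in the labels were therefore taken to pair the libraries. Levels are CPM, or CPM per kilobase between genes. Tests were tried on simulated counts. All members were named. In other lists, genes called and up to 3 with the lowest unadjusted p per comparison could be named. Some genes are not reported here and were left out of the lists. The members and lists were chosen with earlier results of these data known.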

Additional observations from a re-analysis of the deposited data

Results flagged for a closer look

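GYPB was flagged because its replicate difference reached at least 0.5 on the log2 scale in opposite directions in different groups. SLC4A1, GYPE and ANK1 also differed in direction between groups, but by less than this limit. Replicate 2 minus replicate 1 was 0.881 on the log2 scale in EV and -0.807 with STIM1::MXD3, and 0.418 with MXD3. The counts behind it were 1268 and 2778 in EV and 2100 and 1376 with STIM1::MXD3. The difference between the groups was not tested. GYPB belongs to a family of duplicated genes, and the part of shared reads in these values was not tested.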

How the results depend on the processing

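The block by replicate number is one of the alternatives that moved the counts of calls over all genes. For STIM1::MXD3 against EV 1 gene was called, 2 without a filter on low counts, 3 with DESeq2, 3 with the replicate block and 29 with DESeq2 and the block. For MXD3 against EV the counts were 1, 3 with DESeq2, 45 with the replicate block and 243 with DESeq2 and the block. For STIM1::MXD3 against MXD3 they were 0, 1 without the filter, 1 with DESeq2, 1 with the replicate block and 11 with DESeq2 and the block. Of the 8 genes, 2 were called for MXD3 against EV with DESeq2 and the block and 0 in the other fits of comparisons between plasmids. Of the genes named, the block with edgeR also changed the calls of STIM1 and HBZ, and no other.

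Leaving out 1 library at a time gave 1 to 2 calls over all genes for MXD3 against EV, 2580 to 4424 for replicate 2 against replicate 1, and 0 to 3 calls among the 8 genes in that comparison. The median of the 8 genes ranged from -0.20 to -0.049 for STIM1::MXD3 against EV, without EV replicate 1 and 2 respectively, from -0.13 to -0.065 for MXD3 against EV, from -0.11 to 0.011 for STIM1::MXD3 against MXD3 and from -0.032 to 0.043 between replicates. Directions that turned were those of GYPB (-0.69 to 0.27), GYPC (-0.12 to 0.084) and GYPE (-0.15 to 0.0085) for STIM1::MXD3 against EV. For MXD3 against EV they were GYPB (-0.25 to 0.63), GYPC (-0.14 to 0.015) and SPTB (-0.063 to 0.20). For STIM1::MXD3 against MXD3 they were EPB41 (-0.078 to 0.019), EPB42 (-0.13 to 0.66), GYPC (-0.060 to 0.15) and SLC4A1 (-0.093 to 0.22). Between replicates they were ANK1 (-0.018 to 0.034), GYPB (-0.19 to 0.67), GYPE (-0.047 to 0.095) and SLC4A1 (-0.068 to 0.20). The cause was not tested. SLC4A1, EPB42, EPB41 and ANK1 kept their direction against EV in every fit run. For these genes the EV libraries did not overlap with the others. Leaving out 1 library could therefore hardly turn their direction, and that it did not adds no support. With 1 library left out, SLC4A1 ran from -0.53 to -0.25 for STIM1::MXD3 and from -0.61 to -0.30 for MXD3. EPB42 ran from -0.57 to -0.24 for STIM1::MXD3. For MXD3 it ran from -1.07 to -0.29, where each end came from leaving out an MXD3 library. A group left with 1 library was assumed to vary like the others. The lowest count of any of the 8 genes was 503, a counting error of 4.46%, or 6.31% with counts halved, so the spread between libraries and not depth set the precision.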
